A study of Mus musculus with 12 samples.

Results

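The coronins are a family of actin-binding proteins encoded in the mouse by 7 genes, Coro1a, Coro1b, Coro1c, Coro2a, Coro2b, Coro6 and Coro7. They were taken by symbol from the 23284 genes of the count table, and each of the 7 had a row. The family was chosen by the measured level of Coro1a, which was much higher in the CDKO than in the WT embryos of this same comparison, so Coro1a is described without a test. The 6 other genes entered by family membership and were tested with all other genes.

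RNA was sequenced from 12 single whole mouse embryos on a mixed C57BL/6 x 129Sv background, taken at 9.0 days after fertilization with about 9 to 10 somites. Of these, 8 embryos carry the title CDKO and are described as conditional double mutants without functional Tgif1 and Tgif2, and 4 embryos are wild type (WT). Tgif1 and Tgif2 encode related homeodomain repressors that restrain TGF-beta and Nodal signalling. No source used here names the Cre driver, the deleted exons or the litters, so p-values measure the spread between these embryos only. Total counts were 16802367 to 21346245 in the CDKO embryos and 17296017 to 20080786 in the WT embryos. Levels are given as CPM, a gene's count scaled to a common library size, after TMM scaling, which adjusts each library's total for composition. Tgif1 was at 5.5 to 6.87 CPM in the CDKO embryos and at 58.5 to 64.2 CPM in the WT embryos. Tgif2 was not lower, at 84.4 to 116.0 CPM in the CDKO embryos and 85.7 to 88.5 CPM in the WT embryos. A count over the whole gene does not check a partial deletion, so CDKO is used throughout as the label of these embryos. All 12 lineage markers listed for a whole embryo, among them Sox2, Meox1, Myl7, Cdh5 and Hbb-bh1, passed the filter on low counts.

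Coronins fold into a WD-repeat beta propeller that binds actin filaments, followed by a short unique region and a coiled coil through which type I coronins bind the Arp2/3 complex. They work at the turning point between filament branching, which the Arp2/3 complex carries out, and filament disassembly by cofilin. Coro1a is known mainly from leukocytes, where its loss in mice and humans leaves few T cells, and it has also been described in neurons. Coro1b and Coro1c are broadly expressed and act at the leading edge of moving cells. Coro2a and Coro2b form the type II group, Coro6 is known from muscle and nervous tissue, and Coro7 carries a pair of propellers and works at the Golgi. In GENCODE M21 the longest coding transcripts lie on chromosomes 7 (Coro1a), 19 (Coro1b), 5 (Coro1c), 4 (Coro2a), 9 (Coro2b), 11 (Coro6) and 16 (Coro7). They encode 461 to 543 codons, except Coro7 with 922.

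The upstream sequence of Coro1a is shown first because this gene carries the largest difference in the family, with Coro2b as a member that rose much less. RefSeq promoter windows of build GRCm38.p6 were found for 6 of the 7 members, in 9 windows, and the 250 bases upstream of each start site were searched for TGTCA, the core site bound by TGIF proteins, on both strands. Sequences run 5′ to 3′ on the gene's strand and capitals mark each match, which reads TGACA where it lies on the opposite strand. The first Coro1a window lies at chr7:126704817-126705066 and the second at chr7:126704221-126704470, both on the minus strand, and the Coro2b window lies at chr9:62537045-62537294 on the minus strand.
Coro1a, first start site: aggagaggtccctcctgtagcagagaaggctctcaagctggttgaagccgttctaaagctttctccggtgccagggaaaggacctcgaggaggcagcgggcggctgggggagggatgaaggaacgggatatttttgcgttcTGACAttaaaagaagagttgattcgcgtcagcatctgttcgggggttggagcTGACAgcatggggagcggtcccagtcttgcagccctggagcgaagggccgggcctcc
Coro1a, second start site: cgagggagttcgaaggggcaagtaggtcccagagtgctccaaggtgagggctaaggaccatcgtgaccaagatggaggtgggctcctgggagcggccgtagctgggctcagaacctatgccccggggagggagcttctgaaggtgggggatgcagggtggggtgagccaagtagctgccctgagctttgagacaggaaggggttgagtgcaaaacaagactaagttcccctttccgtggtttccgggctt
Coro2b: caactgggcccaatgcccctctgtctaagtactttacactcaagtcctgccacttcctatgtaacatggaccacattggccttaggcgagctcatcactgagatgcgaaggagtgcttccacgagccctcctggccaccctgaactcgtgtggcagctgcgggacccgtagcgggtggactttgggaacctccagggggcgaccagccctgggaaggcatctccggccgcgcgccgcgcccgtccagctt

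The first Coro1a window held 2 matches, beginning 109 and 57 bases upstream of the start site, and the second held none. Matches were also present in 1 window each of Coro2a, Coro6 and Coro7, with 1, 2 and 1 matches. The Coro1c and Coro2b windows held none. In all, 4 of the 9 coronin windows (44.4%) held the motif, against 39.9% of 32817 windows of 250 bases over all genes. At least 2 matches stood in 11.1% of all windows. These matches are descriptions of letters and do not show binding.

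Coro1a was far more abundant in the CDKO embryos. It was measured at 19.5, 26.3, 23.2, 22.7, 25.7, 26.2, 19.1 and 21.2 CPM in CDKO embryos 1 to 8, against 3.24, 3.29, 2.71 and 3.19 CPM in WT embryos 1 to 4. The lowest CDKO embryo lay well above the highest WT embryo, and no embryo of either group lay near the gap. These levels rest on 328 to 552 counts per CDKO library and 47 to 65 counts per WT library. The mean was 23.0 ± 2.91 CPM (SD, n = 8) in the CDKO embryos and 3.11 ± 0.271 CPM (SD, n = 4) in the WT embryos, a log2 fold change of 2.88 (SE 0.123), or 7.38-fold. It ranked 17 from the top among 14412 genes tested. Over 25 alternative settings and embryo omissions the log2 fold change of Coro1a lay between 2.71 and 2.91.

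**Figure D1:**
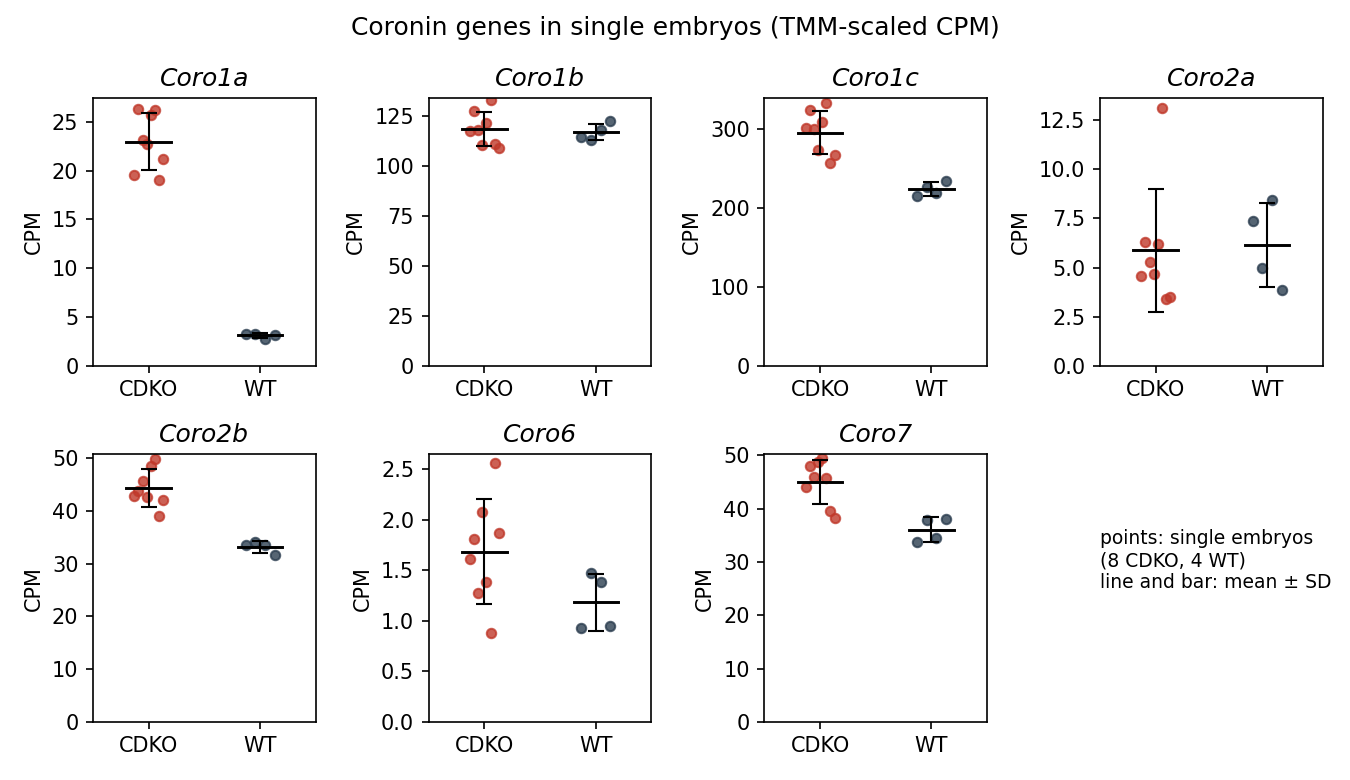
TMM-scaled CPM of each coronin gene in single embryos, CDKO left and WT right, with mean and SD as line and bar; every vertical axis starts at 0. Coro1a stands at 19.1 to 26.3 CPM in CDKO and 2.71 to 3.29 CPM in WT embryos, Coro1c, Coro2b and Coro7 show smaller gaps, and CDKO embryo 6 stands apart in Coro2a at 13.1 CPM.

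Of the 6 other coronins, 3 were higher in the CDKO embryos (Coro1c, Coro2b and Coro7), 0 were lower and 3 did not pass (Coro1b, Coro2a and Coro6), by edgeR's quasi-likelihood test with Benjamini-Hochberg adjustment over 14412 genes and a threshold of 0.05. Over all genes tested 51.5% were called, 26.6% higher and 24.9% lower. Nothing is read from the family's count, because the family was chosen with this comparison in view. The median log2 fold change was 0.36 over these 6 genes and 0.01 over all genes tested. Without CDKO embryo 2 and WT embryo 1, which stood apart in earlier results of these data, 3 of the 6 were again higher and 0 lower. In whole embryos, more cells of a type and more RNA per cell cannot be told apart.

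Among the type I coronins, Coro1c rose and Coro1b gave no call. Coro1c, a broadly expressed coronin of migrating cells, was at 301.2, 324.3, 299.5, 273.4, 308.3, 333.1, 256.3 and 266.2 CPM in CDKO embryos 1 to 8, against 214.9, 226.8, 218.7 and 234.4 CPM in WT embryos 1 to 4. Each CDKO embryo lay above each WT embryo, with CDKO embryo 7 closest to the WT range. The log2 fold change of Coro1c was 0.40 (SE 0.067, edgeR adjusted p = 0.000166), or 1.32-fold, in 8 of 8 embryos. Coro1c has 1 near-identical copy elsewhere in the genome, 2010001K21Rik, which is not a row of the table, and an antisense gene overlaps 3.85% of its exon bases.

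Coro1b, which binds the Arp2/3 complex and brings the phosphatase slingshot to it, was at 117.2, 127.4, 117.9, 110.5, 121.5, 132.7, 111.0 and 108.8 CPM in CDKO embryos 1 to 8, against 114.5, 112.8, 117.9 and 122.2 CPM in WT embryos 1 to 4. The groups overlapped on both sides: 2 CDKO embryos lay above the highest WT embryo and 3 below the lowest. Its log2 fold change was 0.02 (SE 0.055, 95% interval -0.1 to 0.13, edgeR adjusted p = 0.802), and the sign turned under several settings. After removal of GC content and length trends, a setting chosen after seeing the data, Coro1b was lower by -0.13 on the log2 scale (edgeR adjusted p = 0.00535). The leukocyte gene Ptprcap overlaps 13.5% of the Coro1b exon bases on the same strand, and it was at 0.346 to 0.762 CPM in the CDKO embryos and 0.232 to 0.405 CPM in the WT embryos.

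**Figure D2:**
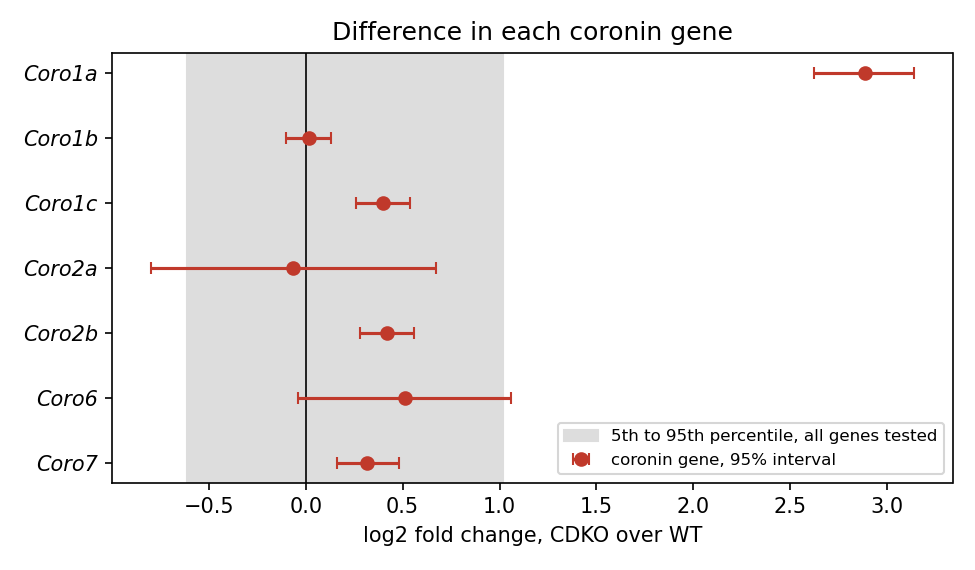
Log2 fold change, CDKO over WT, of each coronin gene with its 95% interval; the grey band spans the 5th to 95th percentile of all genes tested, -0.61 to 1.02. Coro1a at 2.88 lies outside the band, Coro1c, Coro2b and Coro7 lie inside it with intervals above 0, and the intervals of Coro1b, Coro2a and Coro6 include 0; Coro1b and Coro2a turned sign under some settings, with Coro1b below 0 once GC content and length trends were removed.

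Of the type II coronins, Coro2b rose and Coro2a varied widely between embryos. Coro2b, known from nervous tissue and cell-matrix adhesions, was at 42.9, 43.8, 45.8, 42.7, 48.5, 49.8, 39.0 and 42.1 CPM in CDKO embryos 1 to 8, against 33.5, 34.1, 33.5 and 31.6 CPM in WT embryos 1 to 4. The CDKO embryos were higher without overlap. The log2 fold change of Coro2b was 0.42 (SE 0.065, edgeR adjusted p = 8.54e-05), or 1.34-fold, in 8 of 8 embryos. With GC content and length trends removed it was 0.27 (edgeR adjusted p = 0.000735).

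Coro2a, found in the NCoR corepressor complex, was at 4.57, 6.28, 5.26, 4.69, 6.21, 13.1, 3.38 and 3.48 CPM in CDKO embryos 1 to 8, against 7.36, 4.96, 8.46 and 3.84 CPM in WT embryos 1 to 4. CDKO embryo 6 stood above every other embryo of either group, and the remaining CDKO embryos lay within or below the WT range. The coefficient of variation of Coro2a was 53.1% in the CDKO embryos and 34.6% in the WT embryos, where counting error gives 9.54% and 9.44%. Its log2 fold change was -0.07 (SE 0.339, 95% interval -0.8 to 0.67, edgeR adjusted p = 0.885). Without CDKO embryo 6 it was -0.34 (edgeR adjusted p = 0.22), and without WT embryo 3 it was 0.12 (edgeR adjusted p = 0.821), so the data gave no direction for Coro2a.

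Coro7, the Golgi coronin, was at 44.0, 48.0, 45.9, 48.8, 49.4, 45.7, 39.5 and 38.3 CPM in CDKO embryos 1 to 8, against 33.7, 37.9, 34.6 and 38.1 CPM in WT embryos 1 to 4. The groups did not overlap, but CDKO embryo 8 was close to the highest WT embryo. The log2 fold change of Coro7 was 0.32 (SE 0.075, edgeR adjusted p = 0.00238), or 1.25-fold, in 8 of 8 embryos. With GC content and length trends removed it was 0.21 (edgeR adjusted p = 0.00767).

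Coro6 was the least abundant member, with 15 to 44 counts per CDKO library and 16 to 29 per WT library. It was at 1.61, 1.81, 1.27, 2.07, 1.39, 0.882, 2.56 and 1.86 CPM in CDKO embryos 1 to 8, against 0.927, 1.47, 1.38 and 0.947 CPM in WT embryos 1 to 4. The groups overlapped, with 5 CDKO embryos above the highest WT embryo and 1 below the lowest. The log2 fold change of Coro6 was 0.51 (SE 0.256, 95% interval -0.04 to 1.06, edgeR adjusted p = 0.109). Without CDKO embryo 6 it passed, at 0.60 (edgeR adjusted p = 0.0366).

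Counting Coro1a, 4 of the 7 members had groups that did not overlap in CPM, against 34.7% of all genes tested. All 4 were higher in the CDKO embryos, where 17.5% of all genes stood above every WT embryo. For the reason given above these counts are read no further.

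Between genes, levels were compared as CPM per kilobase of the longest coding transcript. In the CDKO embryos Coro1c stood highest, at 84.6 ± 7.91 CPM per kilobase (SD, n = 8), and Coro1b next, at 62.7 ± 4.51. Coro1a at 13.2 ± 1.67, Coro2b at 12.3 ± 0.981 and Coro7 at 10.5 ± 0.966 CPM per kilobase followed, with ranges that overlapped from each to the next. Coro2a at 1.41 ± 0.751 and Coro6 at 0.6 ± 0.185 CPM per kilobase were lowest, and their ranges also overlapped. In the WT embryos Coro1c and Coro1b stood at 64.1 ± 2.48 and 61.9 ± 2.19 CPM per kilobase (SD, n = 4) with overlapping ranges. Coro2b at 9.19 ± 0.299 and Coro7 at 8.4 ± 0.527 came next, then Coro1a at 1.78 ± 0.155 and Coro2a at 1.48 ± 0.512, and last Coro6 at 0.421 ± 0.101 CPM per kilobase. Coro1a thus stood beside Coro2b and Coro7 in the CDKO embryos and beside Coro2a in the WT embryos.

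The family's summed level was 185.2 ± 15.6 CPM per kilobase in the CDKO embryos and 147.2 ± 3.87 CPM per kilobase in the WT embryos. Coro1a made up 7.09% ± 0.498 of it in the CDKO embryos and 1.21% ± 0.11 in the WT embryos (SD, n = 8 and 4). Coro1b made up 33.9% ± 0.791 in the CDKO embryos and 42.0% ± 0.855 in the WT embryos. Per coding length the Coro1a share was 4.64% in the CDKO embryos and 0.801% in the WT embryos, and Coro2b stood above Coro1a in both groups, at 30.8 against 16.6 CPM per kilobase in the CDKO embryos. The place of Coro1a among the members therefore depends on the length used.

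**Figure D3:**
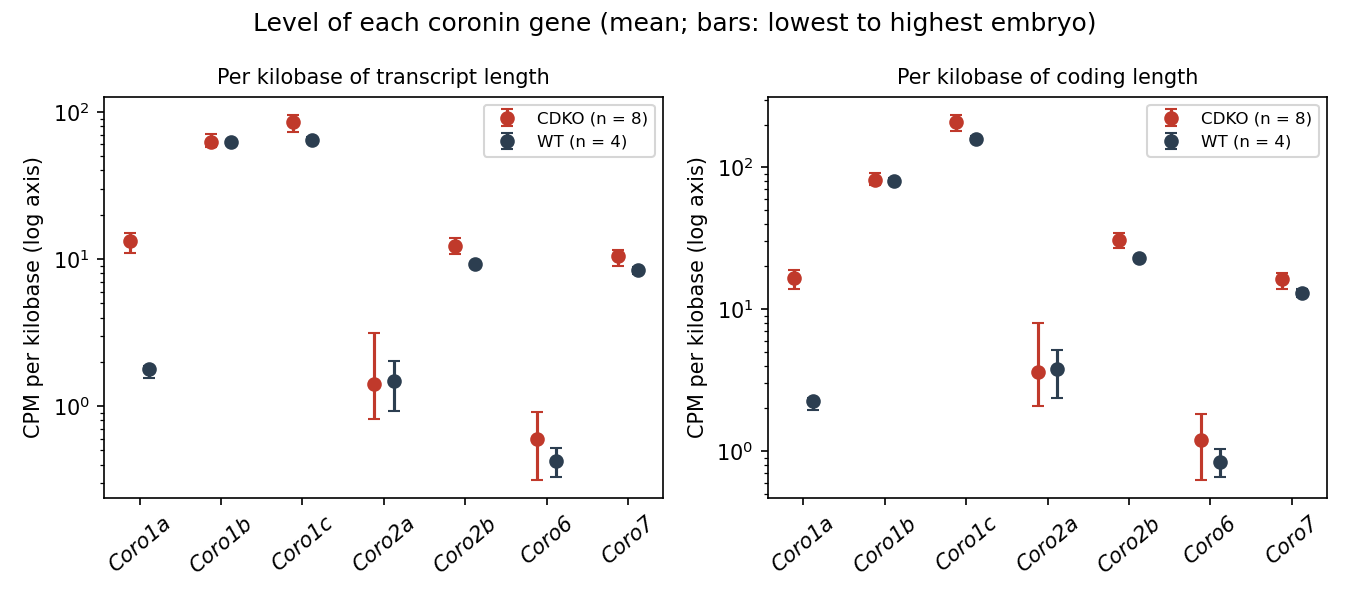
Level of each coronin gene in CPM per kilobase on a log axis, by transcript length (left) and coding length (right); points are group means and bars run from the lowest to the highest embryo. Coro1c and Coro1b are the most abundant members in both groups and panels, and Coro1a stands at 13.2 CPM per kilobase in CDKO and 1.78 in WT embryos by transcript length.

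The defining leukocyte markers Ptprc, Cd53, Tyrobp, Fcer1g and Spi1 were near 0 where Coro1a was high. Ptprc, the pan-leukocyte phosphatase CD45, had 9 counts over the 8 CDKO libraries and 0 counts over the 4 WT libraries. Cd53 had 14 counts in the CDKO and 3 in the WT libraries, Tyrobp 11 in the CDKO and 2 in the WT libraries, and Fcer1g 40 in the CDKO and 11 in the WT libraries. Spi1, the myeloid master regulator listed under its older symbol Sfpi1, had 33 counts in the CDKO and 21 in the WT libraries, with means of 0.219 and 0.279 CPM. Coro1a had 3496 counts in the CDKO and 232 in the WT libraries. These totals run over 8 CDKO and 4 WT libraries without scaling, so the 2 groups cannot be compared by them directly. Mean CPM in the CDKO and WT embryos was 0.063 and 0 for Ptprc, and 0.0921 and 0.0394 for Cd53. It was 0.0754 and 0.0253 for Tyrobp, and 0.27 and 0.144 for Fcer1g. These means were higher in the CDKO embryos and that of Spi1 was lower. Ptprc, Cd53, Tyrobp, Fcer1g and Spi1 did not pass the filter on low counts and were not tested.

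Of the other defining markers, Csf1r and Laptm5 had more counts and gave no call, and Itgb2 had few counts. The macrophage receptor gene Csf1r was at 1.69 ± 0.331 CPM (SD, n = 8) in the CDKO embryos and 1.28 ± 0.489 CPM (SD, n = 4) in the WT embryos (edgeR adjusted p = 0.212), and Laptm5 was at 2.7 ± 0.452 CPM in the CDKO and 3.47 ± 0.503 CPM in the WT embryos (edgeR adjusted p = 0.0581). Itgb2, a leukocyte integrin gene, was at 0.541 ± 0.322 CPM in the CDKO embryos, against 0.133 ± 0.0204 CPM in the WT embryos (log2 fold change 1.95, SE 0.541, edgeR adjusted p = 0.00718). These levels rest on 3 to 20 counts per CDKO library and 2 to 3 per WT library. Itgb2 passed the filter on low counts only through CDKO embryos, the group where it is high, so its call is read no further. Of 24 leukocyte markers 8 passed the filter on low counts, and of these 2 were higher, 1 was lower and 5 did not pass, where 51.5% of all genes were called. The 2 were Itgb2 and Mrc1, which endothelium also expresses, and the lower was Ikzf1. The number higher was 1 without WT embryo 1 or 2, or without CDKO embryo 1, 6, 7 or 8, and the number lower was 0 without WT embryo 2 or 4 and 3 without CDKO embryo 1 or 6. The summed level of the list was 21.7 to 37.9 CPM in the CDKO embryos and 22.5 to 28.9 CPM in the WT embryos, so the groups overlapped. With the leukocyte marker score as a covariate the log2 fold change of Coro1a was 2.88. The score averages all 24 markers, of which 8 had at most 3 counts in every CDKO embryo and 13 in every WT embryo. Much of the score thus rests on few counts, so nothing is read from this value.

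**Figure D4:**
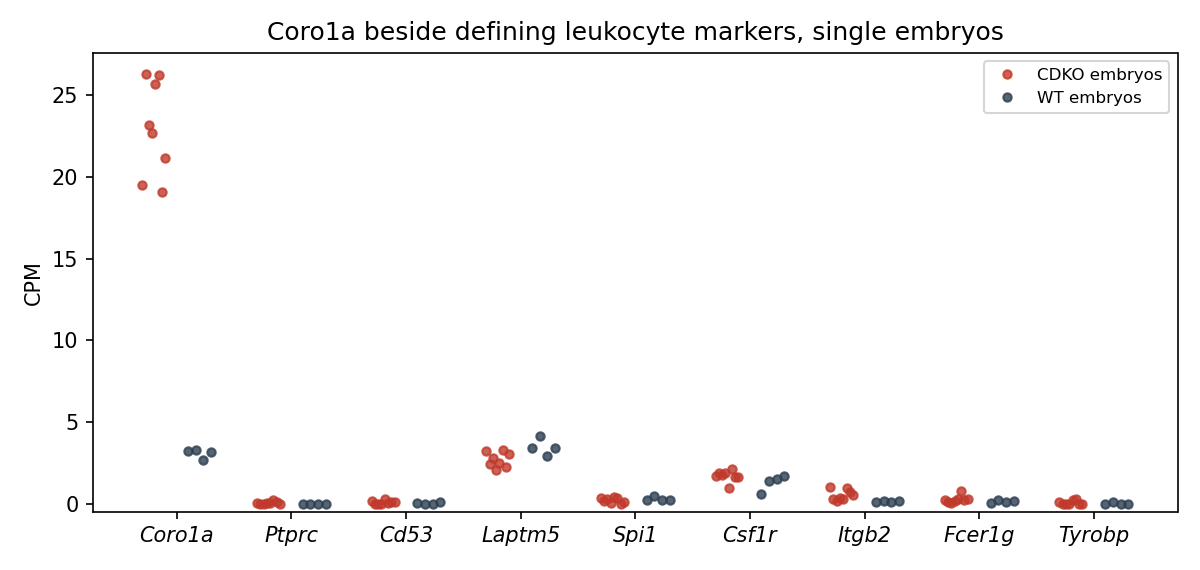
CPM of Coro1a and of 8 defining leukocyte markers in single embryos, CDKO left and WT right for each gene, on a linear axis. Coro1a stands at 19.1 to 26.3 CPM in CDKO embryos while no marker exceeds 4.15 CPM in any embryo and Ptprc does not exceed 0.235 CPM.

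Of 16 genes of the leukocyte actin machinery 11 were tested, and 4 were higher, 0 lower and 7 did not pass, where 26.6% of all genes were higher and 24.9% lower. Their median log2 fold change was 0.48, against 0.01 over all genes. Arhgdib, a gene of blood cells and endothelium, was at 21.5 ± 3.44 CPM in the CDKO embryos and 8.11 ± 0.59 CPM in the WT embryos (log2 fold change 1.41, SE 0.125). Hcls1, the blood cell cortactin gene, rose by 0.93 (SE 0.313) and Abi3, a WAVE complex gene, by 0.50 (SE 0.181). Hcls1 had 18 to 42 counts per CDKO library and 6 to 20 per WT library, and its groups overlapped in CPM. Those of Abi3 also overlapped, at 6.02 to 12.2 CPM in the CDKO and 4.4 to 6.03 CPM in the WT embryos. Lcp2, an adaptor gene of immune receptors and platelets, is among the 4 higher, at 1.66 (SE 0.429). It had 6 to 28 counts per CDKO library and 4 to 6 per WT library. Lcp2 passed the filter on low counts only through CDKO embryos, the group where it is high, so its call is read no further. Without WT embryo 1 or WT embryo 3 the number higher was 2, and without CDKO embryo 6 the number lower was 1.

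Summed markers of megakaryocytes, endothelium, heart muscle and skeletal muscle were higher in every CDKO embryo than in any WT embryo, and those of early neurons and primitive red cells overlapped between the groups. Megakaryocyte markers summed to 10.9 to 31.6 CPM in the CDKO embryos and 8.0 to 8.86 CPM in the WT embryos, where 6 of 10 had at most 3 counts in every embryo. Of the 10, 4 were tested and 3 of them were higher, where 26.6% of all genes were. Whether these 4 passed the filter on low counts only through CDKO embryos was not checked, so this count is read no further. Endothelial markers summed to 499.0 to 709.0 CPM in the CDKO and 389.2 to 465.5 CPM in the WT embryos, and heart muscle markers to 2521 to 4450.0 CPM in the CDKO and 1626 to 2066 CPM in the WT embryos. Of these, 6 of 10 endothelial and 9 of 12 heart muscle markers tested were higher and 0 lower. Skeletal muscle markers summed to 71.7 to 115.8 CPM in the CDKO and 43.4 to 56.6 CPM in the WT embryos. Only 3 of these 8 genes were tested, with 1 higher and 0 lower. Early neuron markers overlapped, at 136.6 to 178.0 CPM in the CDKO and 149.4 to 183.5 CPM in the WT embryos, with 1 of 15 tested genes higher and 3 lower. Primitive red cell markers ranged from 50.0 to 1697 CPM in the CDKO and from 819.7 to 1341 CPM in the WT embryos, with 0 of 9 tested genes higher and 1 lower. The part of these differences in the rise of the coronin genes was not tested.

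Of 10 genes of the Arp2/3 complex, which coronins bind, 4 were higher, 2 lower and 4 did not pass, where 26.6% of all genes were higher and 24.9% lower. The list is small and was not tested as a set. Their median log2 fold change was 0.14, against 0.01 over all genes. Arpc1a, a propeller subunit gene, was at 198.2 ± 12.7 CPM in the CDKO embryos and 125.5 ± 5.32 CPM in the WT embryos (log2 fold change 0.66, SE 0.054), Arpc3 rose by 0.45 (SE 0.056) and Arpc5 by 0.39 (SE 0.067). Arpc5l fell by 0.26 (SE 0.058). Arpc1b, the subunit gene paired with Arpc1a and the more abundant of the pair in leukocytes, gave -0.01 (SE 0.213) and was chosen after its value was seen. The number lower was 1 without WT embryo 1 or 3 or CDKO embryo 3 or 5.

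Of 24 activators and inhibitors of the Arp2/3 complex 5 were higher, 8 lower and 11 did not pass, where 26.6% of all genes were higher and 24.9% lower. The list was not tested as a set, and its median log2 fold change was 0.05. The WAVE complex paralogs parted: Cyfip2 rose to 58.6 ± 5.11 CPM in the CDKO embryos, against 36.5 ± 0.781 CPM in the WT embryos (log2 fold change 0.68, SE 0.069), and Cyfip1 fell by 0.30 (SE 0.035). Whamm, a nucleation promoter that acts at the Golgi, rose by 1.26 (SE 0.134) and Wasf2 by 0.29 (SE 0.061). The number higher was 3 without WT embryo 1 or WT embryo 3. Without CDKO embryo 2 and WT embryo 1 together 3 were higher and 4 lower.

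Of 16 cofilin cycle genes 6 were higher, 2 lower and 8 did not pass, where 26.6% of all genes were higher and 24.9% lower. The list was not tested as a set, and its median log2 fold change was 0.04. Limk2, a kinase gene whose product inactivates cofilin, was at 196.4 ± 15.4 CPM in the CDKO embryos and 75.7 ± 3.77 CPM in the WT embryos (log2 fold change 1.38, SE 0.064). Limk1 rose by 0.24 (SE 0.06), and Cap2, which helps recycle actin monomers, by 0.51 (SE 0.086). Ssh2, a slingshot phosphatase gene that reactivates cofilin, rose by 0.73 (SE 0.072). Cofilin itself, Cfl1, gave -0.02 (SE 0.047), a value chosen after it was seen. The number higher was 4 to 7 over the 25 alternatives. It was 4 with RLE scaling, and without WT embryo 2 or 4 or CDKO embryo 1, 2 or 6. The number lower was 1 without WT embryo 2, 3 or 4 or CDKO embryo 3 or 4. The adjusted p of the genes named as changed in the 3 preceding lists and in the leukocyte actin list lay between 4.59e-10 and 0.0302, by edgeR over all genes.

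Genes beside the coronins did not share the size of the Coro1a difference. On either side of Coro1a, Bola2 gave a log2 fold change of 0.15 (SE 0.077, edgeR adjusted p = 0.119) and Mapk3, the ERK1 kinase gene, 0.33 (SE 0.101, edgeR adjusted p = 0.0142). Bola2 lies on the opposite strand and overlaps 0.93% of the Coro1a exon bases. Next to Coro1c stood the slingshot gene Ssh1 (-0.18, SE 0.09, edgeR adjusted p = 0.104) and Selplg, with 11 counts in the CDKO and 1 in the WT libraries. Beside Coro2b, Anp32a fell by 0.26 (SE 0.045) and Itga11, an integrin gene, rose by 1.70 (SE 0.297), with edgeR adjusted p = 0.000212 and 0.00023. The Itga11 value rests on 20 to 48 counts per CDKO library and 9 to 15 per WT library. Beside Coro2a, the RabGAP gene Tbc1d2 rose by 0.78 (SE 0.144, edgeR adjusted p = 0.000344). Trim14 had 64 counts over the 8 CDKO and 23 over the 4 WT libraries, with means of 0.42 and 0.304 CPM.

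Coro6 lies beside Ssh2, already described, and Ankrd13b, which gave 0.04 (SE 0.09, edgeR adjusted p = 0.714). Vasn, a gene nested within Coro7 with no shared exon bases in GENCODE M21, rose by 0.48 (SE 0.131, edgeR adjusted p = 0.00667). Nearby, Dnaja3 fell by 0.24 (SE 0.05, edgeR adjusted p = 0.00108) and Glis2 gave -0.01 (SE 0.073, edgeR adjusted p = 0.889). Dnaja3 overlaps 2.06% of the Coro7 exon bases on the opposite strand. Gpr152, beside Coro1b, had 2 counts in the CDKO and 3 in the WT libraries.

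Within the CDKO embryos Coro1a, Coro1b, Coro1c, Coro2a and Coro2b were positively correlated, by Pearson's r, in each of their 10 pairs. Of 21 pairs of members over the 8 embryos, 14 passed by Pearson's r and 9 by Spearman's coefficient, by two-sided exact permutation tests with Benjamini-Hochberg adjustment over the 21 pairs. The share of pairs that pass over all genes in these embryos was not computed, so these counts are not read as a trait of the family. Coro7 passed in 0 of its 6 pairs by either measure. Each r was also taken without the 2 embryos farthest from the median of 1 gene only, the earlier in the order Coro1a to Coro7. The closest pair was Coro1b with Coro1c (r = 0.95, exact p = 0.000496, adjusted 0.00642; Spearman's coefficient = 0.9, exact p = 0.00456, adjusted 0.0192; n = 8). It was 0.93 without CDKO embryos 2 and 6 and 0.79 with GC content and length trends removed. With these trends removed, Coro2b gave r = 0.48 with Coro1a, 0.48 with Coro1b and 0.5 with Coro1c, against 0.81, 0.76 and 0.81 as measured. Coro1c with Coro2a gave 0.91, against 0.87.

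Coro6 had r below 0 in all 6 of its pairs, of which 4 passed by Pearson's r and 1, with Coro2b, by Spearman's coefficient. Against Coro2b it gave r = -0.93 (exact p = 0.00131, adjusted 0.0069) and Spearman's coefficient = -0.93 (exact p = 0.00223, adjusted 0.0156; n = 8). That was -0.92 without CDKO embryos 5 and 6 and -0.83 with the trends removed. Against Coro2a it gave r = -0.86 (exact p = 0.00819, adjusted 0.0281) and Spearman's coefficient = -0.74 (exact p = 0.0458, adjusted 0.0688), but r = -0.42 without CDKO embryos 6 and 7, so that relation rests on those embryos.

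Coro1a followed Coro2a (r = 0.79, exact p = 0.00935, adjusted 0.0281; Spearman's coefficient = 0.95, exact p = 0.00114, adjusted 0.0156; n = 8), with r = 0.81 without CDKO embryos 1 and 7 and 0.62 with the trends removed. Its r with Coro1b was 0.77 (exact p = 0.0288, adjusted 0.0458; Spearman's coefficient = 0.79, exact p = 0.0279, adjusted 0.0533; n = 8) and 0.93 without CDKO embryos 1 and 7, but 0.09 with the trends removed. CDKO embryos 1 and 7 were chosen by Coro1a alone, so these checks kept CDKO embryo 6, which stood apart in Coro2a. The labels name no sequencing batch, and r with total counts lay between -0.21 and 0.31 for the 7 members. The WT group, with 4 embryos, was too small for a correlation.

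**Figure D5:**
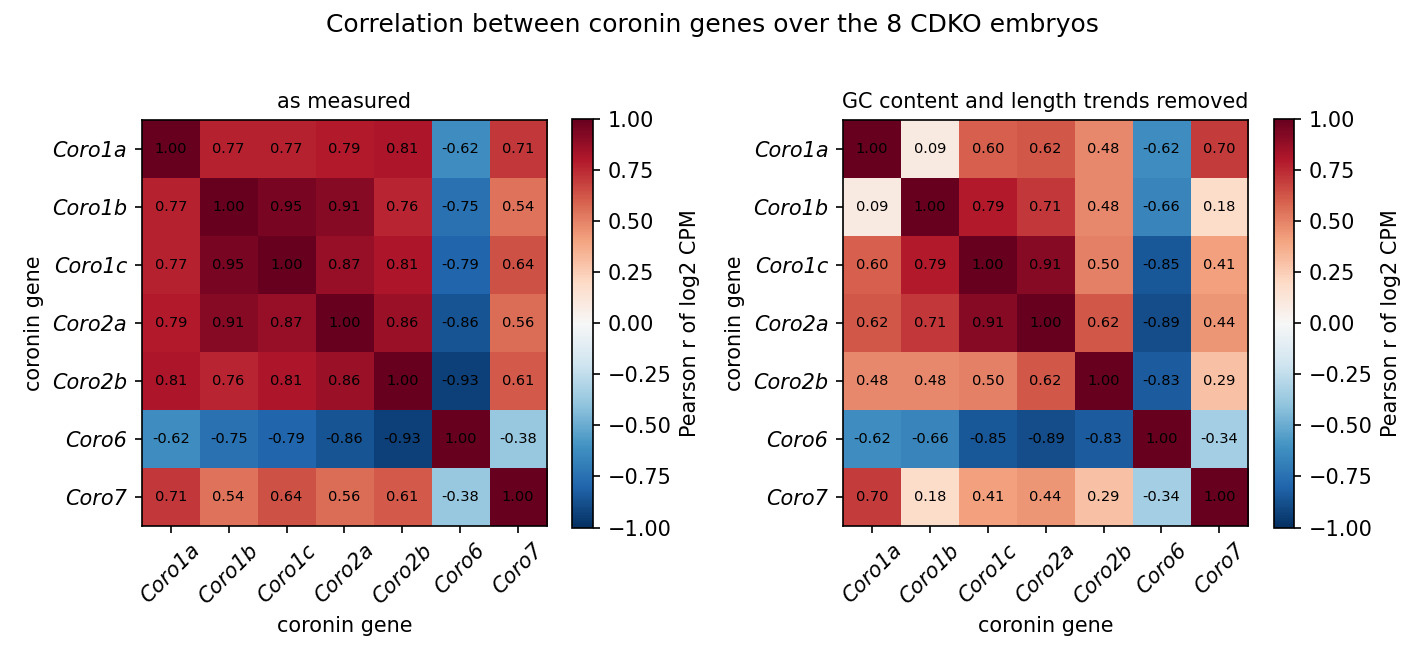
Pearson's r of log2 CPM between coronin genes over the 8 CDKO embryos, as measured (left) and after removal of GC content and length trends (right); red is positive and blue negative. Coro1b and Coro1c are the closest pair at 0.95, Coro6 is negative with each other member in both panels, and Coro1a with Coro1b drops to 0.09 in the right panel, against 0.77 in the left.

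The genes most like Coro1a were sought among 12277 others with a mean of at least 1 CPM, by Pearson's r of log2 CPM over the 12 embryos. This measure is a description, since the embryos fall into the 2 genotype groups and any gene with a steady difference scores high. The 6 closest were Trappc5 (r = 0.996), Pop5 (0.995), Acap3 (0.995), Pmvk (0.994), Etfb (0.994) and Tcf19 (0.994). Within the 8 CDKO embryos their r with Coro1a was 0.94 for Trappc5, 0.89 for Pmvk, 0.81 for Pop5, 0.77 for Acap3, 0.67 for Etfb and 0.38 for Tcf19. These 8 embryos are among the 12 that chose the genes, so the values are a description. Each was higher in the CDKO embryos, with log2 fold changes of 0.96 for Trappc5, 1.18 for Pop5, 1.57 for Acap3, 1.26 for Pmvk, 1.09 for Etfb and 2.28 for Tcf19. Trappc5 encodes a subunit of the TRAPP vesicle tethering complex, Pmvk an enzyme of cholesterol synthesis and Etfb an electron carrier subunit of mitochondria.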

How the data were processed

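The tools were FastQC, STAR, featureCounts and DESeq2, and the build was mm9, per the submitters' processing notes. Strand setting, annotation, multi-mapping and versions are not given in the sources used, so overlapping and duplicated genes are uncertain. The deposited values are raw counts by symbol from poly-A libraries with paired reads of 50 bases. Single embryos were grouped by labelled genotype. Replicate numbers follow sample order and pair nothing. The lowest chi-square per degree of freedom between libraries of a group was 3.89, so none was a repeat.

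Counts were fitted with edgeR 4.0.16 in R 4.3.3 (TMM, filterByExpr by group, robust dispersions, no covariate), with 14412 genes tested. The 95% intervals use the fit's degrees of freedom. Alternatives were limma-voom 3.58.1 with and without quality weights, DESeq2 1.42.0, scaling by upper quartile or RLE, other filters, non-robust dispersions, covariates, omitted genes and omitted embryos; removal of GC content and length trends was added after seeing the data. On simulated counts for this comparison, over 14412 genes, the fit recovered 38 of 59 genes changed 1.5-fold, 77 of 82 changed 2-fold and 55 of 59 changed 4-fold. Of 179 calls 9 were false. The simulation changed a far smaller share of genes than the 51.5% called in the embryos. Its recovery and false calls therefore need not hold for the real counts.

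Members and lists were chosen with earlier results of these data known. Named are the members, Tgif1 and Tgif2, the genes overlapping the members or nearest to them among protein-coding genes, up to 4 genes of lowest p per actin list, defining leukocyte markers, and the 6 genes most like Coro1a, with predicted genes, Y-linked genes and Xist left out. Overlapping noncoding genes without a row in the table were not analysed here. Symbols were matched to RefSeq GRCm38.p6, and lengths and copies (BLAST 2.17.0, at least 200 bases at 95% identity) came from GENCODE M21. That build differs from mm9, so it served for names, lengths, neighbours and promoter sequences.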

Additional observations from a re-analysis of the deposited data

Results flagged for a closer look

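Among 129 groups of embryos examined over the members, marker lists and named genes, 15 held an embryo far from the rest of its group, where chance gives about 1 in 20; the groups share embryos and are not independent.

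CDKO embryo 6 stood apart in Coro2a, with 13.1 CPM where its group otherwise spanned 3.38 to 6.28 CPM. The same embryo was highest in the summed Arp2/3 complex genes (1616 CPM, against 1383 to 1473), in the summed endothelial markers (709.0 CPM, against 499.0 to 594.3), in Abi3 (12.2 CPM, against 6.02 to 8.5) and in Fcer1g (0.765 CPM, against 0.0578 to 0.308), and lowest in Cyfip2 (47.4 CPM, against 57.3 to 65.4). CDKO embryo 2 was highest in the summed heart muscle markers (4450.0 CPM, against 2521 to 3343), CDKO embryo 1 in Cyfip1 (158.9 CPM, against 145.7 to 151.7), and CDKO embryo 5 was lowest in Csf1r (0.9747 CPM, against 1.62 to 2.12).

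Among the WT embryos, embryo 1 was lowest in the summed megakaryocyte markers (8.0 CPM, against 8.77 to 8.86) and highest in Anp32a (614.6 CPM, against 568.4 to 574.1). WT embryo 2 was highest in Sfpi1 (0.456 CPM, against 0.199 to 0.232) and in Tyrobp (0.101 CPM, with the others at 0), WT embryo 4 in Selplg (0.0499 CPM, with the others at 0), and WT embryo 3 was lowest in Pop5 (29.7 CPM, against 31.0 to 31.2). The values of Sfpi1, Tyrobp and Selplg rest on few counts. The part of these embryos in the group differences was not tested beyond leaving each out.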

How the results depend on the processing

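No paired analysis was possible because the labels give the groups no shared replicate numbers. Over 25 alternatives Coro1c (log2 fold change 0.34 to 0.42, adjusted p 1.92e-07 to 0.00162), Coro2b (0.27 to 0.44, 3.66e-08 to 0.000735) and Coro7 (0.21 to 0.35, 0.000338 to 0.0185) lost 0 calls. The number of members other than Coro1a that differed was 3 to 4 and the number of genes that differed 6342 to 8639, with 49.5% to 52.8% of calls higher. Coro1b turned to -0.13 with GC content and length trends removed (adjusted p = 0.00535), to -0.0264 with the red cell score and -0.0112 with the leukocyte score as covariate, to -0.0044 without CDKO embryo 2 and WT embryo 1, and over single embryos left out lay between -0.0067 and 0.041. Coro2a turned to 0.0191 without CDKO embryo 2 and WT embryo 1, and over single embryos left out lay between -0.34 and 0.12. Coro6 passed without CDKO embryo 6 (0.60, adjusted p = 0.0366; 0.0366 to 0.295 over the alternatives). The cause of these changes was not tested. By coding length the Coro1a share was 4.64% in CDKO and 0.801% in WT embryos. Low counts limit Coro6, and counts of 47 to 65 limit Coro1a in WT embryos.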
